A study of Sus scrofa with 24 samples.

Results

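The comparison described here is that of fetal skeletal muscle of the German Landrace pig at 91 days post conception (dpc) against 63 dpc. Its members are 6 of the 24 arrays of the study, those titled DL 91 pool a, b and c and DL 63 pool a, b and c, and all probe sets of the array except the Affymetrix controls. The study measured longissimus dorsi muscle of 2 pig breeds, German Landrace (DL) and Pietrain (Pi), at 35, 63 and 91 dpc and in adults, with 3 RNA pools in each of the 8 groups. Pietrain is a heavily muscled breed, and its 3 pools at 91 dpc and 3 pools at 63 dpc serve below to set the German Landrace step beside the same step in another breed. No genetic change or treatment is given for any group. How many animals made a pool, and of which sex, the sources used here do not give, and a free-text label calls the fetal pools peripubertal, against their stated stage. Each p-value therefore sets a difference against the spread of pools.

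Pig muscle forms its fibres before birth in waves: primary fibres fuse first, and secondary fibres form along them and make up most of the fibres of the newborn. Late in gestation the number of fibres is largely set, embryonic isoforms of the contractile proteins give way to fetal and adult ones, and the fibres build their calcium stores, mitochondria and fuel reserves for life after birth. The question the design puts is which transcripts differ between a stage when fibres are still being formed and a later fetal stage when they mature.

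Each value is a log2 intensity of 1 probe set on 1 array, from about 2 at background to about 16. The share of probe sets no brighter than the background of their array was 23.0% to 25.7% in the DL 91 pools and 21.3% to 22.6% in the DL 63 pools. Muscle transcripts were at the top of the scale in all 6 pools, with CKM, muscle creatine kinase, at 15.33 to 15.51 in the DL 91 pools and 14.84 to 15.03 in the DL 63 pools, and MYH7, the slow myosin heavy chain, at 14.64 to 14.92 and 14.20 to 14.42. Of the muscle panel, ACTA1 and CASQ1 had no probe set with that symbol.

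DL 91 pool c stood apart from the other pools and is given with and without where it bears on a result. Its correlation with DL 91 pools a and b over all probe sets was 0.972 for both, while pools a and b correlated with each other at 0.984. The difference between 3' and 5' control probe sets, which grows as RNA degrades, was 2.99 for actin in that pool, against 1.42 and 1.41 in DL 91 pools a and b and 1.21 to 1.43 in the DL 63 pools. For GAPDH the same difference was 1.16 in pool c, 0.28 and 0.25 in pools a and b, and 0.67 to 0.72 in the DL 63 pools. Among the DL pools of these stages, the 3 DL 63 pools stood apart in another way. They carried transcripts of liver plasma proteins, which are described at the end. The part of either in the results below was not tested beyond the values given beside them.

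Of 23999 probe sets tested, 2696 (11.2%) passed an adjusted p of 0.05 in limma. Of these, 1413 (5.89% of those tested) were higher and 1283 (5.35%) lower at 91 dpc, and 782 of the higher and 633 of the lower differed by at least 1 on the log2 scale. The pools of the 2 stages did not overlap for 3161 probe sets that were higher (13.2%) and for 3206 that were lower (13.4%). The median difference over all probe sets was 0.00076. With 1 probe set for each of 6765 gene symbols, 627 genes (9.27%) rose and 524 (7.75%) fell, and these shares are the background against which the gene lists below are read. In lists with 5 calls or fewer in a direction, leaving out 1 pool often changed the count by 1 or 2. In some it changed by more, as from 4 falls to 0 among ribosomal protein genes. Without DL 91 pool c, 2449 probe sets passed. With only the 6 DL arrays in the fit, which leaves fewer degrees of freedom and takes the spread from these arrays alone, 1627 passed. Arrays of whole tissue cannot tell fewer cells of a type from less RNA per cell, and all differences are relative to the other probe sets because the values were made equal in distribution across arrays.

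**Figure D1:**
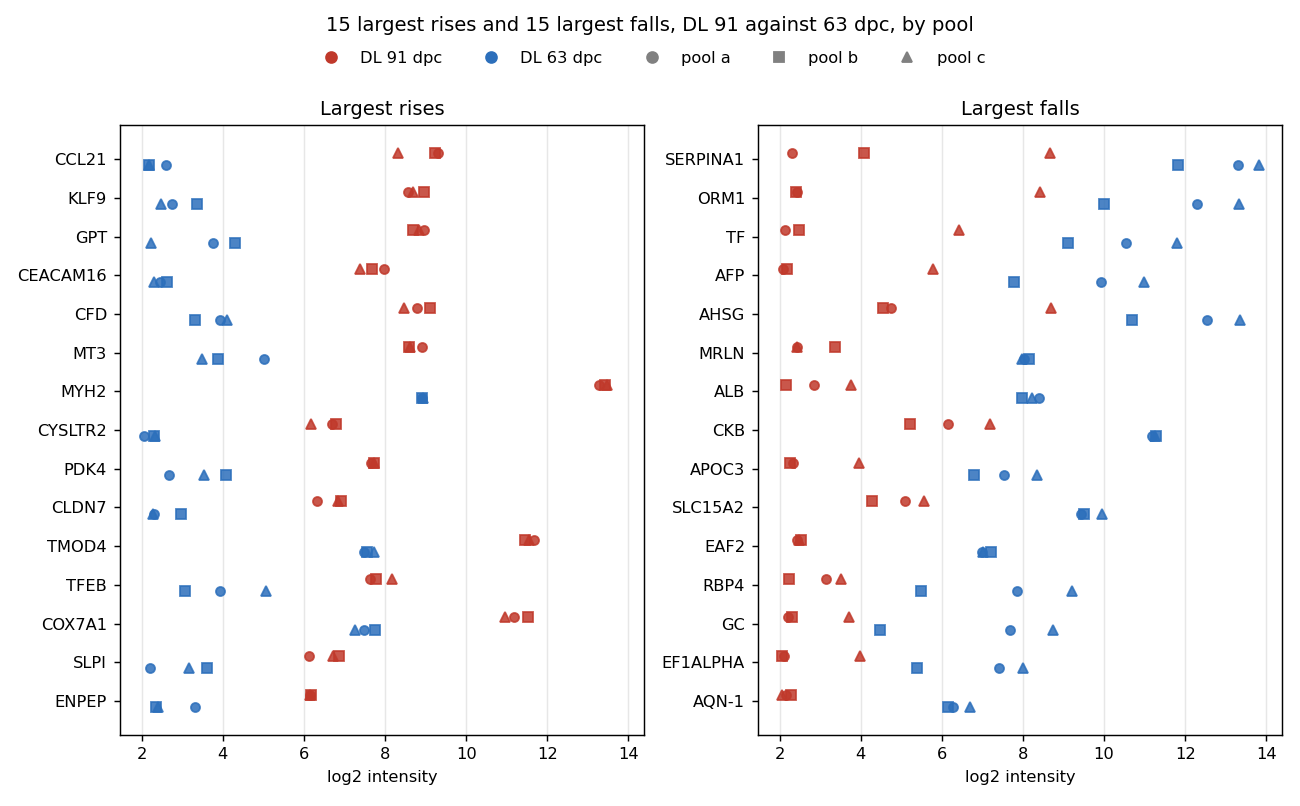
The 15 largest rises (left) and 15 largest falls (right) among passing genes with no overlap of pools, by pool; the x axis is the log2 intensity, red marks DL 91 pools, blue DL 63 pools, and the shape gives the pool. CCL21 lay at 8.33 to 9.30 in the DL 91 pools and at 2.18 to 2.59 in the DL 63 pools, and among the falls SERPINA1, ORM1, TF, AFP and AHSG had DL 91 pool c well above DL 91 pools a and b.

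The largest rise was that of CCL21, a chemokine of lymphatic vessels, with 9.3, 9.24 and 8.33 in DL 91 pools a, b and c, against 2.59, 2.18 and 2.18 in DL 63 pools a, b and c. All DL 91 pools were far above background, and 2 of the 3 DL 63 pools were at it (log2 difference 6.64 ± 0.26 SE, n = 3 pools a stage throughout, adjusted p = 2.64e-06). KLF9, a transcription factor that glucocorticoids and thyroid hormone induce, read 8.57, 8.96 and 8.68 in DL 91 pools and 2.74, 3.36 and 2.48 in DL 63 pools (5.87 ± 0.4, adjusted p = 4.12e-05). A second KLF9 probe set was near background in both stages and did not pass. GPT, alanine aminotransferase, had 8.95, 8.7 and 8.83 in DL 91 pools, against 3.76, 4.3 and 2.24 in DL 63 pools (5.4 ± 0.43, adjusted p = 8.48e-05). The other large rises joined genes of unlike roles. CEACAM16, of the carcinoembryonic antigen family, rose by 5.21 ± 0.19, CFD, the serine protease complement factor D, by 5.0 ± 0.32, and MT3, a metal-binding metallothionein, by 4.58 ± 0.34. Metallothionein genes are near-identical in parts, so the MT3 probe set may read more than one of them. CYSLTR2, a leukotriene receptor, was at background in all DL 63 pools and at 6.69, 6.79 and 6.18 in the DL 91 pools, at least 18.8-fold higher (adjusted p = 5.6e-05). CLDN7, a tight junction protein, had 6.32, 6.92 and 6.84 in DL 91 pools, against 2.29, 2.96 and 2.29 in DL 63 pools, of which 2 were at background (adjusted p = 0.000136). A difference against pools at background, as in part here and for CCL21, GPT, CEACAM16 and SLPI, has no exact size. TFEB, a transcription factor of lysosome genes, rose by 3.84 ± 0.58, SLPI, a protease inhibitor, by 3.58 ± 0.44, and ENPEP, the aminopeptidase that cleaves angiotensin, by 3.47 ± 0.45.

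Among the largest falls outside the plasma protein genes were MRLN and CKB, taken up below with calcium handling and energy buffering, and SLC15A2, a transporter of small peptides. SLC15A2 had 5.08, 4.28 and 5.57 in DL 91 pools, against 9.43, 9.5 and 9.95 in DL 63 pools (-4.65 ± 0.59, adjusted p = 0.00113), and its 2 other probe sets fell too. EAF2, a partner of an RNA polymerase elongation factor, was just above background in the DL 91 pools with 2.42, 2.52 and 2.48, against 6.99, 7.22 and 7.01 in the DL 63 pools (-4.6 ± 0.17, adjusted p = 2.64e-06). AQN-1, a spermadhesin known from boar seminal plasma, was at background in all DL 91 pools and at 6.28, 6.14 and 6.69 in the DL 63 pools, at least 16-fold lower at 91 dpc (adjusted p = 0.000208). For each of these 3 genes every DL 91 pool lay below every DL 63 pool, which was a condition for entering the largest falls.

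Fast contractile genes rose, slow ones went both ways in small steps, and embryonic isoforms fell. Of 8 measured fast fibre genes 5 rose and none fell, with a list median of 0.45. MYH2, the fast IIa myosin heavy chain, read 13.29, 13.43 and 13.48 in DL 91 pools and 8.9, 8.92 and 8.95 in DL 63 pools. The pools of a stage lay close together and the stages were 22.2-fold apart (4.48 ± 0.21 on the log2 scale, adjusted p = 6.46e-06). Fast myosin heavy chain genes share long near-identical stretches, so the probe set may also read its neighbours. MYOZ1, which binds calcineurin at the Z-disc of fast fibres, rose by 0.79 ± 0.09, and the fast troponin T gene TNNT3 by 0.55 ± 0.09. Of 12 slow fibre genes 1 rose and 3 fell (median -0.12), and with 1 pool left out 0 or 1 rose and 0 to 3 fell, none without DL 63 pools a or c. MYH7 rose by 0.43 ± 0.1 (adjusted p = 0.022), while MYL3, the slow and ventricular essential light chain, fell to 11.78, 11.88 and 11.66 in DL 91 pools, against 12.796, 12.61 and 12.88 in DL 63 pools (-0.99 ± 0.21, adjusted p = 0.0175). MYH7 lost its call without DL 91 pool b or c or without DL 63 pool a or c (log2 0.36 to 0.45, adjusted p = 0.0514 to 0.0736), and MYL3 without DL 91 pool a or c or without DL 63 pool a or c (log2 -0.99 to -0.93, adjusted p = 0.0514 to 0.0595). TPM3, slow tropomyosin, fell by 0.40 (adjusted p = 0.0196) and lost the call without DL 63 pool a or c (log2 -0.39, adjusted p = 0.0591 to 0.0605).

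The 3 measured isoforms of early muscle were all lower on average at 91 dpc, and 2 of them passed (list median -1.48). MYL4, the embryonic and atrial light chain, had 12.901, 12.497 and 12.87 in DL 91 pools, against 14.796, 14.81 and 14.802 in DL 63 pools (-2.05 ± 0.13, adjusted p = 2.79e-05). TNNT2, the cardiac troponin T that early skeletal muscle also makes, had 11.86, 11.55 and 11.62 in DL 91 pools, against 13.13, 13.26 and 13.08 in DL 63 pools (-1.48 ± 0.1, adjusted p = 3.69e-05). Both stayed among the brighter transcripts of the array, with no overlap between the stages. ACTC1, cardiac alpha-actin, was near the top of the scale in every pool, with 15.22, 15.19 and 15.21 in DL 91 pools and 15.38, 15.49 and 15.29 in DL 63 pools (adjusted p = 0.335). The myogenic factors did not pass. None of 9 genes of this list passed in limma, where 5559 probe sets in all reached an unadjusted p under 0.05, and the list median was -0.09. MYOD1 had 10.33, 10.24 and 10.19 in DL 91 pools, against 9.45, 9.4 and 9.91 in DL 63 pools (adjusted p = 0.1). MYF5 differed by -0.46 ± 0.41, and MYF6 by -0.2 ± 0.3, with DL 91 pool c lowest for both. MSTN, myostatin, the brake on muscle growth, differed by 0.47 ± 0.23 (adjusted p = 0.27).

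Of 23 genes of the Z-disc, M-band and filaments 9 rose and none fell (median 0.19). Without DL 91 pool c, 6 rose and 1 fell. TMOD4, which caps the slow-growing ends of actin filaments in skeletal muscle, read 11.67, 11.46 and 11.56 in DL 91 pools, against 7.49, 7.56 and 7.73 in DL 63 pools (3.97 ± 0.19, adjusted p = 7.64e-06). TCAP, the telethonin that ties titin ends together, rose by 1.9 ± 0.19, PDLIM3, an actinin-binding protein of the Z-disc, by 2.16 ± 0.2, and SYNM, the intermediate filament protein synemin, by 1.45 ± 0.18. For TCAP, PDLIM3 and SYNM the lowest DL 91 pool lay above the highest DL 63 pool. For TMOD4, which is among the largest rises, this was a condition of that choice. DES, desmin, rose by 0.34 ± 0.09 at an adjusted p of 0.0477, and lost the call without DL 91 pool b or c or without DL 63 pool a, b or c (log2 0.25 to 0.38, adjusted p = 0.0679 to 0.128). At the fibre membrane SGCD, delta-sarcoglycan of the dystrophin complex, read 10.55, 10.52 and 10.12 in DL 91 pools and 7.77, 8.06 and 8.13 in DL 63 pools (2.41 ± 0.18, adjusted p = 7.45e-05). ANXA2, an annexin of membrane repair, fell by 0.69 (adjusted p = 0.00135), and the other 3 measured genes of that list, DMD, ANXA1 and SNTB1, did not pass (1.01 ± 0.35, 0.38 ± 0.2 and 0.13 ± 0.19). NCAM1, an adhesion molecule of myoblasts and young fibres, fell to 7.48, 6.77 and 7.79 in DL 91 pools, against 9.3, 9.06 and 9.39 in DL 63 pools (-1.91 ± 0.24, adjusted p = 0.00111). CHRNA1, the alpha subunit of the muscle acetylcholine receptor, did not pass (-0.1 ± 0.19).

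Most measured genes of calcium release rose. Of 5 measured genes of release and the triad 4 rose and none fell (median 1.06), and 3 rose without DL 91 pool c. ATP2A1, the calcium pump of fast fibres, had 12.25, 12.27 and 12.56 in DL 91 pools, against 10.02, 9.69 and 9.87 in DL 63 pools (2.5 ± 0.12, adjusted p = 7.64e-06). ATP2A2, the pump of slow fibres and heart, read 13.77, 13.82 and 13.85 in DL 91 pools and 13.82, 13.86 and 13.78 in DL 63 pools (adjusted p = 0.969). RYR1, the calcium release channel, rose by 1.06 ± 0.16, HRC, a calcium-binding protein of the reticulum, by 1.21 ± 0.15, and BIN1, which shapes the T-tubules, by 0.57 ± 0.06. S100A1, a calcium sensor that binds the release channel, passed at 1.16 ± 0.32 (adjusted p = 0.0476) and lost the call without DL 91 pool a, b or c or without DL 63 pool a, b or c (log2 0.93 to 1.29, adjusted p = 0.0722 to 0.142). FKBP1A, which stabilises the channel, did not pass (0.07 ± 0.12).

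The 3 small membrane proteins that inhibit the calcium pump went different ways. SLN, sarcolipin, was among the brightest probe sets and rose by 0.55 ± 0.06 (adjusted p = 0.000704). PLN, phospholamban, had 9.47, 10.35 and 8.89 in DL 91 pools, against 7.26, 6.48 and 7.36 in DL 63 pools (2.54 ± 0.39, adjusted p = 0.00328), and a second PLN probe set rose as well. MRLN, myoregulin, had 2.44, 3.37 and 2.42 in DL 91 pools, against 8.02, 8.14 and 7.97 in DL 63 pools. All 3 DL 63 pools lay close together and all 3 DL 91 pools were near background, a 39.4-fold difference (-5.3 ± 0.33, adjusted p = 2.85e-05). Over the 4 German Landrace stages MRLN averaged 8.06 at 35 dpc, 8.04 at 63 dpc, 2.75 at 91 dpc and 8.94 in adults, so that it was low at 91 dpc and high at the stage before and the stage after. The Pi pools fell by 4.79 over the same step (adjusted p = 4.91e-05).

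**Figure D2:**
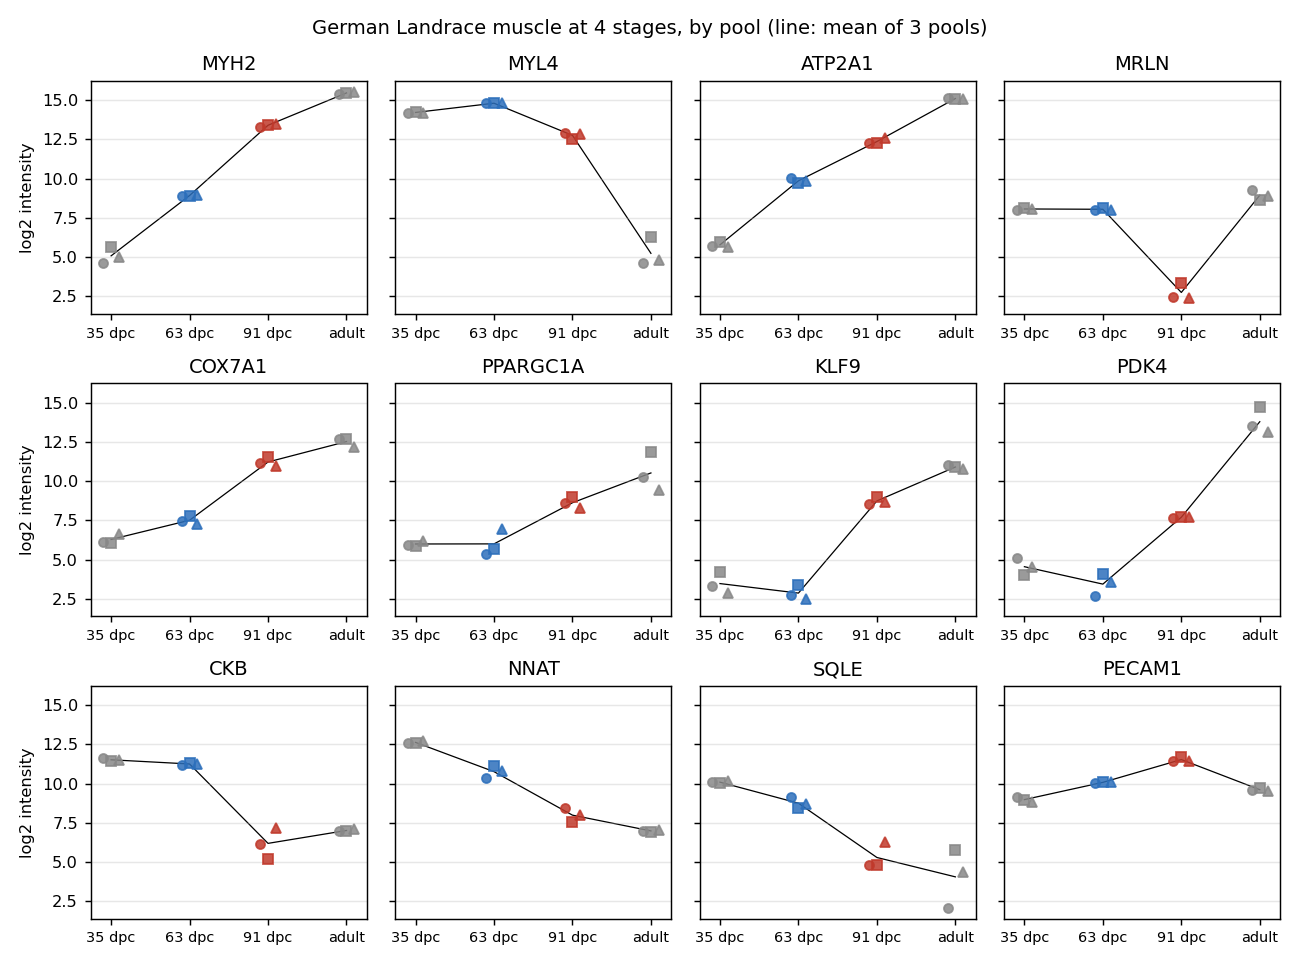
Log2 intensity (y axis) of 12 genes in German Landrace muscle at 35, 63 and 91 dpc and in adults (x axis); points are single pools, blue at 63 dpc and red at 91 dpc, and the line joins the means of 3 pools. MYH2 climbed through all 4 stages to 15.46 in adults, KLF9 stood near 3 until 63 dpc and at 8.74 at 91 dpc, and MRLN was low only at 91 dpc of these stages.

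Among the genes that buffer ATP, the brain and muscle creatine kinases parted. CKB, the brain-type enzyme of undifferentiated cells, had 6.16, 5.22 and 7.18 in DL 91 pools, against 11.18, 11.29 and 11.27 in DL 63 pools (-5.06 ± 0.39, adjusted p = 7.45e-05). CKM rose by 0.49 ± 0.09 (adjusted p = 0.00884), near the ceiling of the scale. Over the 4 stages CKB averaged 11.51 at 35 dpc, 11.25 at 63 dpc, 6.19 at 91 dpc and 7.01 in adults, and CKM 11.36 at 35 dpc, 14.95 at 63 dpc, 15.44 at 91 dpc and 15.58 in adults. In this list of 7 genes 4 rose and 1, CKB, fell (median 0.40), and 1 to 3 rose with any 1 pool left out. CKMT2, the sarcomeric mitochondrial creatine kinase, rose by 0.76 ± 0.18 (adjusted p = 0.0294), but not without DL 91 pool a or b or without DL 63 pool b or c (log2 0.64 to 0.71, adjusted p = 0.0865 to 0.0977). ADSSL1, the muscle adenylosuccinate synthase, rose by 0.69 ± 0.17 (adjusted p = 0.0313), but not without DL 91 pool a or c or without DL 63 pool a, b or c (log2 0.54 to 0.71, adjusted p = 0.0732 to 0.0882).

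Genes of the respiratory chain rose together. Of 64 measured genes in 4 lists of the chain and ATP synthase 44 rose and none fell, and 62 had a difference above 0 (median 0.61). Without DL 91 pool c 43 rose, and with the GAPDH 3' minus 5' difference as a covariate 44 rose. Of 33 genes of complex I, the entry point for electrons from NADH, 26 rose (median 0.76), and all 33 had a difference above 0. NDUFS7, which carries an iron-sulphur cluster, read 11.72, 12.03 and 11.58 in DL 91 pools, against 9.999, 10.26 and 10.23 in DL 63 pools (1.61 ± 0.17, adjusted p = 0.000373). The accessory subunits NDUFB11, NDUFA11 and NDUFB7 rose by 1.31 ± 0.11, 1.24 ± 0.15 and 1.17 ± 0.12, without overlap of the pools. Of 7 genes of complexes II and III 6 rose (median 0.78). SDHA, the flavoprotein of succinate dehydrogenase, had 12.47, 12.16 and 11.997 in DL 91 pools and 10.95, 10.79 and 10.49 in DL 63 pools (1.46 ± 0.17, adjusted p = 0.000705), and UQCRB of complex III rose by 1.06 ± 0.11.

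In cytochrome c oxidase, the last complex, 3 of 7 genes rose (median 0.35), and the isoforms of 1 subunit differed. COX7A1, the heart and muscle isoform of subunit 7A, had 11.17, 11.52 and 10.96 in DL 91 pools, against 7.48, 7.76 and 7.27 in DL 63 pools (3.71 ± 0.29, adjusted p = 7.66e-05), a 13.1-fold difference. COX7A2, the isoform of other tissues, stood at 12.59, 12.67 and 12.64 in DL 91 pools and 12.58, 12.44 and 12.52 in DL 63 pools (0.12 ± 0.08, adjusted p = 0.434). COX7A1 averaged 6.28 at 35 dpc, 7.5 at 63 dpc, 11.22 at 91 dpc and 12.52 in adults, and COX7A2 12.87 at 35 dpc, 12.51 at 63 dpc, 12.64 at 91 dpc and 11.37 in adults. COX8H, a heart and muscle subunit, rose by 1.33 ± 0.11, and COX5B, a subunit of all tissues, by 0.35 ± 0.07 (adjusted p = 0.0133). COX5B did not pass under 6 alternatives, among them only the 6 DL arrays, the dim filter and the replicate block (adjusted p = 0.0529 to 0.144). Of 17 genes of ATP synthase and the adenine nucleotide carriers 9 rose (median 0.31), 10 without DL 91 pool c and 5 or 6 without any other single pool. SLC25A4, the ADP/ATP carrier of heart and muscle, rose by 1.14 ± 0.08, the synthase subunit ATP5D by 1.13 ± 0.1, and ATP5G1, which encodes the ring subunit, by 1.05 ± 0.16.

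**Figure D3:**
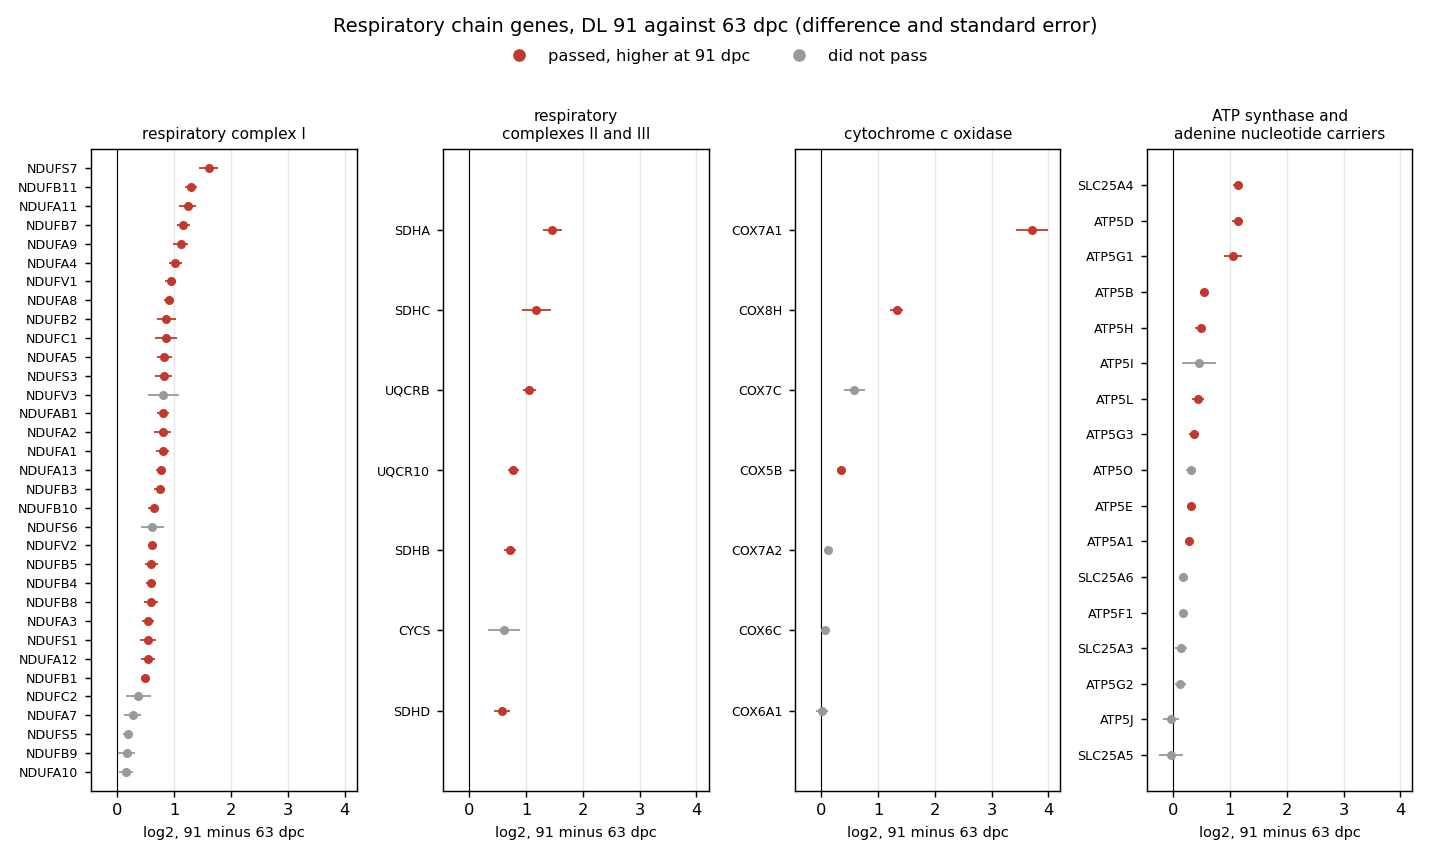
Log2 difference between DL 91 and DL 63 pools (x axis; point and standard error) of each of the 64 measured respiratory chain genes, in 4 panels by complex; red marks genes that passed, grey those that did not. The points lie to the right of 0 except for 2 of the ATP synthase list, and COX7A1 stands at 3.71, beyond all others.

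The enzymes that feed the chain moved the same way. Of 24 genes of the TCA cycle, pyruvate dehydrogenase and linked transaminases 15 rose and none fell (median 0.60). IDH2, the mitochondrial isocitrate dehydrogenase, had 12.55, 12.58 and 12.505 in DL 91 pools, against 11.16, 11.296 and 11.57 in DL 63 pools (1.2 ± 0.16, adjusted p = 0.00138). The aspartate transaminases GOT1 and GOT2 rose by 1.7 ± 0.18 and 1.09 ± 0.15. PDK4, the kinase that shuts pyruvate dehydrogenase off when fat is burned, had 7.65, 7.72 and 7.72 in DL 91 pools, against 2.67, 4.09 and 3.55 in DL 63 pools (4.26 ± 0.39, adjusted p = 0.000194). A second PDK4 probe set, with means of 3.97 in DL 91 and 2.48 in DL 63 pools, did not pass (1.49 ± 0.59, adjusted p = 0.159). Of 28 genes of fatty acid uptake and oxidation 14 rose and none fell (median 0.63). PPARGC1A, the coactivator that drives mitochondrial genes, had 8.57, 8.98 and 8.3 in DL 91 pools, against 5.35, 5.68 and 6.96 in DL 63 pools (2.62 ± 0.4, adjusted p = 0.0028). ACSL1, which activates fatty acids, rose by 2.54 ± 0.13, CPT1B, the muscle carnitine transferase of the outer mitochondrial membrane, by 1.85 ± 0.2, and ACADVL, the first enzyme of long-chain oxidation, by 1.6 ± 0.18. For these 3 genes no DL 91 pool came near the DL 63 pools.

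Of 25 measured genes of glycolysis and glycogen 11 rose and 2 fell (median 0.40), and without DL 91 pool c 9 rose and 4 fell. SLC2A4, the insulin-responsive glucose transporter, was at background in all DL 63 pools and at 5.67, 4.09 and 4.29 in the DL 91 pools, at least 5.13-fold higher (adjusted p = 0.000868), while its 2 other probe sets stayed at background. FBP2, the muscle fructose bisphosphatase, had 8.94, 8.53 and 8.66 in DL 91 pools, against 6.22, 6.12 and 6.08 in DL 63 pools (2.57 ± 0.25, adjusted p = 0.000243). ENO3, the muscle enolase, rose by 1.13 ± 0.11 from an already high level. PFKP, the platelet phosphofructokinase, rose by 1.29 ± 0.34 at an adjusted p of 0.0399, and lost the call without DL 91 pool a, b or c or without DL 63 pool a or c (log2 1.11 to 1.38, adjusted p = 0.0722 to 0.132). The 2 genes that fell, named after their values were seen, were LDHB, the heart-type lactate dehydrogenase (-1.08), and HK1, the hexokinase of most tissues (-0.94).

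Lipid synthesis went the other way from lipid oxidation. Of 21 genes of lipid synthesis and storage 9 fell and 1 rose (median -0.94), and the counts were the same without DL 91 pool c. The 1 that rose was PNPLA2, a lipase that breaks triglyceride down (1.06, named after its value was seen). SQLE, an enzyme of cholesterol synthesis, had 4.78, 4.82 and 6.26 in DL 91 pools, against 9.14, 8.43 and 8.67 in DL 63 pools (-3.46 ± 0.37, adjusted p = 0.000396). SCD, which puts the double bond into stearate, had 7.03, 6.71 and 7.0 in DL 91 pools, against 8.76, 8.6 and 8.39 in DL 63 pools (-1.67 ± 0.14, adjusted p = 0.000131). FADS1, a desaturase of long fatty acids, differed by -1.91 ± 0.62 and did not pass (adjusted p = 0.0892). ME1, the malic enzyme that supplies NADPH, fell by 2.17 (adjusted p = 0.0272), but not without DL 91 pool b or c or without DL 63 pool a, b or c (log2 -2.28 to -1.69, adjusted p = 0.0592 to 0.0838). Liver also makes these enzymes, and the liver markers described below were high in the DL 63 pools. In the Pi pools, where the median of those markers differed by 0.01 between the stages, SQLE differed by -2.66 (adjusted p = 0.00186) and SCD by -1.82 (adjusted p = 9.38e-05), while the whole list had a median of -0.30.

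Of 20 genes regulated by glucocorticoids or thyroid hormone or belonging to the clock 7 rose and 2 fell (median 0.53), and 4 rose without DL 91 pool a or DL 63 pool a. KLF9 and PDK4 led the list. The genes for the enzymes that make and destroy active cortisol changed in opposite directions. HSD11B2, which inactivates cortisol, had 3.11, 2.99 and 2.12 in DL 91 pools, against 5.21, 5.52 and 5.28 in DL 63 pools (-2.6 ± 0.45, adjusted p = 0.00543), and HSD11B1, which regenerates it, rose by 1.67 (adjusted p = 0.00313; named after its value was seen). FKBP5, a glucocorticoid-induced chaperone of steroid receptors, was lower at 91 dpc, with 4.18, 4.61 and 5.5 in DL 91 pools and 6.3, 7.04 and 6.22 in DL 63 pools (-1.76 ± 0.39, adjusted p = 0.0191), and lost the call without DL 91 pool a or b or without DL 63 pool b (log2 -1.68 to -1.47, adjusted p = 0.0614 to 0.0655). BHLHE40, a clock repressor, passed at 3.04 ± 0.83 (adjusted p = 0.0462), but not without DL 91 pool a, b or c or without DL 63 pool a or b (log2 2.19 to 3.22, adjusted p = 0.0808 to 0.121). Of 18 immediate early genes, which cells switch on within minutes of a stimulus, 10 rose and none fell (median 0.83). IER3 had 7.17, 7.1 and 7.38 in DL 91 pools, against 4.74, 4.63 and 4.03 in DL 63 pools (2.75 ± 0.23, adjusted p = 0.000105), and FOS, a subunit of the AP-1 factor, had 12.14, 12.11 and 12.01 in DL 91 pools, against 10.26, 10.16 and 10.65 in DL 63 pools (1.73 ± 0.29, adjusted p = 0.00457). ATF3, a stress-induced factor, rose by 2.56 ± 0.47. The pools of the 2 stages did not overlap for any of these 3 genes.

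Genes of cell division fell. Of 41 measured genes of the cell cycle and DNA replication 14 fell and none rose (median -0.58), and 39 had a difference below 0. Between 9 (without DL 63 pool b) and 13 (without DL 91 pool c) fell when 1 pool was left out. The members with the largest falls were dim. TYMS, thymidylate synthase, had 5.61, 5.2 and 3.91 in DL 91 pools, against 6.72, 7.22 and 7.11 in DL 63 pools (-2.11 ± 0.57, adjusted p = 0.0442), and lost the call without DL 91 pool b or c or without DL 63 pool a, b or c (log2 -2.26 to -1.61, adjusted p = 0.0796 to 0.118). AURKA, a mitotic kinase, had 5.72, 6.01 and 4.39 in DL 91 pools, against 6.95, 7.05 and 6.73 in DL 63 pools (-1.54 ± 0.35, adjusted p = 0.0216), but did not pass without DL 63 pool a or b (log2 -1.52 to -1.47, adjusted p = 0.0653 to 0.0672). HMMR, a spindle protein, fell by 1.59 (adjusted p = 0.0202), but not without DL 91 pool a or c or without DL 63 pool a or b (log2 -1.54 to -1.46, adjusted p = 0.0569 to 0.0708). TOP2A, topoisomerase of dividing cells, was still bright at 9.43, 9.23 and 9.93 in DL 91 pools, against 10.02, 9.97 and 10.13 in DL 63 pools. Its difference of -0.51 ± 0.16 did not pass (adjusted p = 0.0864) but did without DL 91 pool c (log2 -0.71, adjusted p = 0.00684).

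Of 16 IGF and insulin signalling genes 1 fell and none rose (median 0.06). IGF2, the main fetal growth factor, was near the ceiling at 14.55, 14.38 and 14.87 in DL 91 pools and 14.54, 14.44 and 14.57 in DL 63 pools (0.08 ± 0.13, adjusted p = 0.8). Of its 13 probe sets 1 passed, and it was lower. IGFBP2, an IGF-binding protein, had 8.14, 7.8 and 8.28 in DL 91 pools, against 10.07, 9.86 and 10.15 in DL 63 pools (-1.95 ± 0.32, adjusted p = 0.00423). IGF1 had 6.43, 5.35 and 4.88 in DL 91 pools, against 5.84, 4.97 and 5.64 in DL 63 pools, with overlap, and did not pass (0.07 ± 0.56). Of 16 imprinted genes 5 fell and none rose (median -0.37), and 2 (without DL 91 pool a) to 4 fell with 1 pool left out. NNAT, neuronatin, a paternally expressed gene of the endoplasmic reticulum, had 8.43, 7.53 and 7.99 in DL 91 pools, against 10.33, 11.12 and 10.83 in DL 63 pools (-2.77 ± 0.35, adjusted p = 0.00114). PEG3, another paternally expressed gene, fell by 0.96 (adjusted p = 0.0194), but not without DL 91 pool a or without DL 63 pool a or c (log2 -0.98 to -0.93, adjusted p = 0.0511 to 0.0612). DIO3, the enzyme that inactivates thyroid hormone, was at or near background in all 6 pools.

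The matrix list held more falls than rises. Of 33 genes of matrix glycoproteins, proteoglycans and remodelling 7 fell and 2 rose (median -0.14). TNC, tenascin C of growing tissue, had 6.17, 6.12 and 7.06 in DL 91 pools, against 8.92, 9.29 and 9.16 in DL 63 pools (-2.67 ± 0.26, adjusted p = 0.000243). VCAN, the proteoglycan versican, had 10.36, 10.43 and 10.35 in DL 91 pools, against 11.85, 11.76 and 11.84 in DL 63 pools (-1.43 ± 0.11, adjusted p = 8.02e-05), and 2 more of its probe sets fell. VCAN did not pass with all 24 or the 12 DL arrays (adjusted p = 0.234 to 0.249). FBLN1, fibulin 1, fell by 1.40 (adjusted p = 0.00273). Of 13 collagen genes 1 rose and 1 fell (median -0.07). COL15A1, a collagen of the basement membrane of muscle and vessels, had 13.41, 13.34 and 13.58 in DL 91 pools, against 11.81, 11.89 and 11.89 in DL 63 pools (1.58 ± 0.08, adjusted p = 1.18e-05). COL11A1, a fibril collagen of cartilage, fell to 4.39, 3.69 and 4.32 in DL 91 pools, against 6.39, 5.95 and 6.45 in DL 63 pools (-2.13 ± 0.32, adjusted p = 0.00261). COL1A2 of type I collagen read 12.08, 11.82 and 9.1 in DL 91 pools and 12.07, 12.103 and 12.07 in DL 63 pools, so that pool c alone was low (adjusted p = 0.405). Among 10 fibroblast markers 3 fell and 1 rose (median 0.02), and their summed intensity was 33622 to 34473 in the DL 91 pools and 41943 to 42470 in the DL 63 pools. DPT, dermatopontin, had 8.86, 8.25 and 8.72 in DL 91 pools, against 11.67, 11.89 and 11.96 in DL 63 pools (-3.23 ± 0.21, adjusted p = 3.18e-05), while PRRX1, a factor of mesenchymal progenitors, rose by 1.1 ± 0.22. DPT did not pass with the 12 DL arrays (adjusted p = 0.0655), nor PRRX1 with only the 6 at 63 and 91 dpc (adjusted p = 0.0585).

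Ribosomal protein genes differed little. Of 59 measured genes 4 fell and none rose (median -0.09), and 46 had a difference below 0. The 4 were RPL4, RPL13, RPL5 and RPS15, with differences of -0.34, -0.3, -0.26 and -0.21; the last 3 were named after their values were seen. Between 0 (without DL 63 pool c) and 3 of them passed when 1 pool was left out. Of 23 genes of amino acid supply and aminoacyl-tRNA synthetases 3 fell and 1 rose (median -0.06). ASNS, asparagine synthetase, had 11.16, 11.18 and 11.01 in DL 91 pools, against 13.18, 13.31 and 13.12 in DL 63 pools (-2.09 ± 0.25, adjusted p = 0.000792), and PSPH, an enzyme of serine synthesis, fell by 0.68 (adjusted p = 0.00343). Of 22 genes of ubiquitin ligases, calpains and autophagy 2 rose and 2 fell (median 0.03), and each count lay between 1 and 3 with 1 pool left out. SQSTM1, the autophagy receptor p62, had 10.29, 10.42 and 10.196 in DL 91 pools, against 9.09, 9.1 and 9.38 in DL 63 pools (1.11 ± 0.12, adjusted p = 0.000518). CAPN3, the muscle calpain, did not pass (0.63 ± 0.22, adjusted p = 0.105) but did without DL 91 pool c (log2 0.87, adjusted p = 0.0174). A second CAPN3 probe set rose with all pools in the fit (1.17 ± 0.17, adjusted p = 0.00261).

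Most endothelial markers rose. Of 18 measured endothelial markers 14 rose and none fell (median 1.43), and 15 rose without DL 91 pool c. Their summed intensity was 13154 to 14735 in the DL 91 pools and 5591 to 6780 in the DL 63 pools. PECAM1, the endothelial junction protein CD31, had 11.45, 11.69 and 11.44 in DL 91 pools, against 10.05, 10.096 and 10.08 in DL 63 pools (1.45 ± 0.1, adjusted p = 3.97e-05). TIE1, an endothelial receptor kinase, had 8.86, 8.53 and 8.83 in DL 91 pools, against 6.82, 7.01 and 6.46 in DL 63 pools (1.98 ± 0.22, adjusted p = 0.000529). NOS3, the endothelial nitric oxide synthase, rose by 2.86 ± 0.53, and ICAM2 by 2.42 ± 0.3. TIE1 did not pass with all 24 arrays (adjusted p = 0.138), nor ICAM2 with the 12 DL arrays of 4 stages (adjusted p = 0.0898). KDR, the VEGF receptor, passed at 2.36 ± 0.6 (adjusted p = 0.0343), but not without DL 91 pool a or b or without DL 63 pool a or c (log2 1.73 to 2.41, adjusted p = 0.0809 to 0.108). Of 10 smooth muscle and pericyte markers 3 rose and 2 fell (median -0.02), and their summed intensity was 27169 to 28582 in the DL 91 pools and 35145 to 37976 in the DL 63 pools. RGS5, a pericyte gene, had 10.75, 11.43 and 11.11 in DL 91 pools, against 8.88, 8.89 and 8.94 in DL 63 pools (2.19 ± 0.19, adjusted p = 0.000139). The pericyte channel KCNJ8 rose by 1.27 ± 0.19 and the receptor PDGFRB by 0.79 ± 0.11, and KCNJ8 did not pass with all 24 or the 12 DL arrays (adjusted p = 0.33 to 0.419). ACTA2, smooth muscle alpha-actin, which early muscle fibres express as well, fell to 13.85, 13.78 and 13.91 in DL 91 pools, against 14.77, 14.802 and 14.61 in DL 63 pools (-0.88 ± 0.1, adjusted p = 0.000481).

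Of 26 markers of macrophages and other leukocytes 7 rose and 1 fell (median 0.11), with a summed intensity of 4792 to 6408 in the DL 91 pools and 2999 to 3202 in the DL 63 pools. CCL21, described above, was 1 of the 7. The class II MHC genes SLA-DRA and SLA-DRB1 rose by 2.24 ± 0.23 and 1.79 ± 0.17. In the same list the T cell receptor chain CD3E and the pan-leukocyte PTPRC were at or near background in both stages, with means of 2.09 in DL 91 pools and 2.06 in DL 63 pools for CD3E and of 2.29 and 2.42 for PTPRC. Of 25 genes of class I MHC and the interferon response 9 rose, 1 fell and 15 did not pass (median 0.69), while their summed intensity, which the brightest members set, was lower at 91 dpc, with 42606 to 44944 in the DL 91 pools and 50498 to 58131 in the DL 63 pools. IRF9, a subunit of the interferon-activated factor, had 5.31, 5.69 and 6.17 in DL 91 pools, against 2.26, 2.12 and 2.55 in DL 63 pools, of which 2 were at background (3.41 ± 0.34, adjusted p = 0.0003). PSMB8, a subunit of the immunoproteasome, was at background in all DL 63 pools and at 4.78, 4.99 and 4.31 in the DL 91 pools, at least 5.16-fold higher (adjusted p = 0.000341). MX1, an antiviral GTPase, rose by 2.47 ± 0.41, and SLA-3, a class I heavy chain, by 2.95 ± 0.44. MX1 did not pass with only the 6 DL arrays (adjusted p = 0.0501), nor PSMB8 with the 12 DL arrays of 4 stages (adjusted p = 0.0916). Class I genes are near-identical, so a probe set may read more than one of them.

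Of 10 adipocyte markers 2 rose and none fell (median 0.55), and 1 rose without DL 91 pools a or b or DL 63 pools a or c. FABP4, which carries fatty acids in adipocytes and capillaries, had 11.29, 11.56 and 10.93 in DL 91 pools, against 9.66, 9.23 and 8.78 in DL 63 pools (2.03 ± 0.23, adjusted p = 0.000547). ADIPOQ, adiponectin, the defining adipocyte hormone, was at background in all DL 63 pools and in DL 91 pool c, and read 5.0 and 4.35 in DL 91 pools a and b (1.75 ± 0.66, adjusted p = 0.14). Without DL 91 pool c it passed (log2 2.58, adjusted p = 0.00705), and 4 adipocyte markers rose. Of 9 neuron markers 3 fell and none rose (median 0.01). UCHL1, a ubiquitin hydrolase of neurons, had 3.5, 3.38 and 2.86 in DL 91 pools, against 6.56, 4.91 and 6.42 in DL 63 pools (-2.71 ± 0.55, adjusted p = 0.0127), and STMN2, of growing axons, was at background at 91 dpc and at least 2.42-fold lower (adjusted p = 0.00243). GAP43, of growth cones, fell by 2.56 (adjusted p = 0.027), but not without DL 91 pool a or b or without DL 63 pool b or c (log2 -2.63 to -2.08, adjusted p = 0.063 to 0.0855). SNAP25, of the synapse, was at background in all 6 pools. None of 5 Schwann cell and glia markers (median 0.34) and none of 6 erythroid markers (median -0.48) passed in limma. MBP, myelin basic protein, differed by 1.2 ± 0.38 (adjusted p = 0.0824) and HBB, beta-globin, by -0.45 ± 0.2 (adjusted p = 0.218). Of 5 tendon and cartilage markers 1 rose (median -0.01), the linker protein HAPLN1 (1.62 ± 0.36), which lost the call without DL 91 pool a or c or without DL 63 pool a or b (log2 1.5 to 1.61, adjusted p = 0.0533 to 0.0701).

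**Figure D4:**
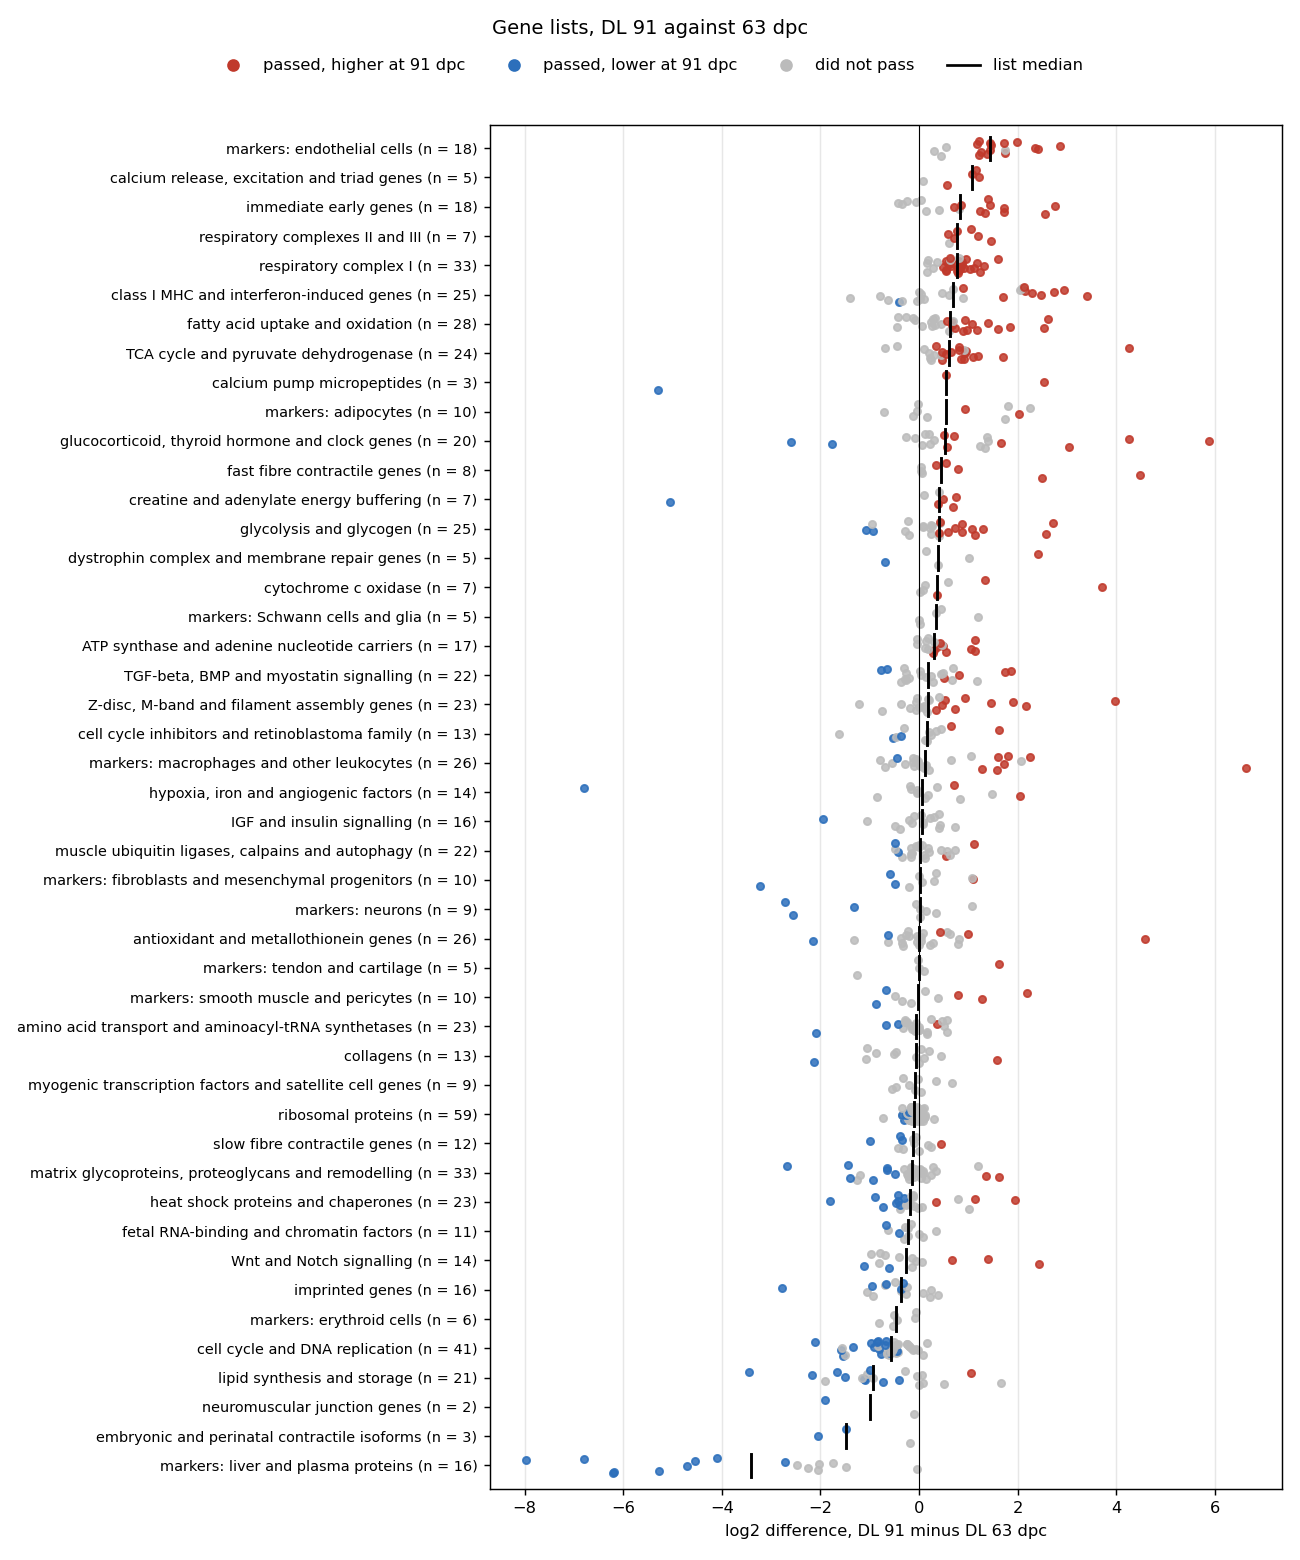
Log2 difference between DL 91 and DL 63 pools (x axis) for every measured gene of each list (y axis, with the number of genes), ordered by the list median; points are genes, red passed as higher, blue as lower and grey did not pass, and the black bar is the median. Endothelial markers have a median of 1.43 and liver and plasma protein genes one of -3.41.

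Liver plasma protein genes had the lowest median of the lists. Of 16 measured genes 9 fell and none rose (median -3.41), 9 without DL 91 pool c, and 15 without DL 63 pool b. Hepatocytes make albumin and most of the other proteins of the list and secrete them into blood. The summed intensity of the 15 genes other than APOA1, which is bright in all pools, was 99.5, 101 and 1051 in DL 91 pools a, b and c, against 19601, 6515 and 32203 in DL 63 pools. With APOA1 it was 3627 to 3775 in the DL 91 pools and 9150 to 36334 in the DL 63 pools. SERPINA1, alpha-1-antitrypsin, had 2.3, 4.07 and 8.66 in DL 91 pools, against 13.31, 11.82 and 13.81 in DL 63 pools (-7.97 ± 1.32, adjusted p = 0.00443). AHSG, fetuin, had 4.75, 4.54 and 8.68 in DL 91 pools, against 12.53, 10.68 and 13.34 in DL 63 pools (-6.2 ± 1.04, adjusted p = 0.00489). For both genes DL 63 pool b was the lowest of its stage, and DL 91 pool c lay between the stages. AFP, alpha-fetoprotein, had 2.08, 2.19 and 5.79 in DL 91 pools, against 9.92, 7.79 and 10.98 in DL 63 pools (-6.21 ± 1.05, adjusted p = 0.00498), in the same order. ALB, albumin, had 2.84, 2.16 and 3.75 in DL 91 pools, against 8.38, 7.98 and 8.21 in DL 63 pools (-5.28 ± 0.38, adjusted p = 5.82e-05). At least 1 DL 91 pool was at background for SERPINA1, AFP and ALB, and for TF, APOC3, RBP4, GC and EF1ALPHA below. The falls of these genes have no exact size. Other German Landrace stages carried liver transcripts too. At 35 dpc SERPINA1, AHSG, AFP and ALB averaged 9.29, 8.94, 7.34 and 3.87, and in adults 6.14, 6.24, 2.18 and 9.09.

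TF, the iron carrier transferrin, fell by 6.80, ORM1, an acute-phase protein, by 7.45, APOC3, an apolipoprotein, by 4.72, RBP4, the retinol carrier, by 4.55, and GC, the vitamin D carrier, by 4.23. The ORM1 value is that of a single probe set. Another ORM1 probe set, with means of 9.998 in DL 91 and 9.877 in DL 63 pools, did not pass (0.12 ± 0.27, adjusted p = 0.876). A further ORM1 probe set near background did not pass either (adjusted p = 0.285). Which of these reads the gene was not tested. GC lost its call without DL 91 pool a or b or without DL 63 pool a (log2 -4.01 to -3.87, adjusted p = 0.0583 to 0.0647). A probe set annotated EF1ALPHA, which fell by 4.21, followed the same pools, with 2.11, 2.06 and 3.99 in DL 91 pools and 7.41, 5.39 and 8.01 in DL 63 pools, while the other 6 probe sets with that symbol did not pass. APOA1, the apolipoprotein of high-density lipoprotein, which chick muscle is known to make, did not follow, with a difference of -0.04. In the Pi pools the median of the 16 genes was 0.01, and SERPINA1 differed by 0.17. RBP4 differed by -2.16 in Pi and did not pass (adjusted p = 0.132). HP, also of the list, had 2.16, 2.05 and 2.13 in Pi 91 pools, against 3.34, 4.43 and 4.98 in Pi 63 pools. The mean log2 of the 16 genes was 3.09, 3.07 and 4.60 in DL 91 pools a, b and c, and 7.59, 5.96 and 8.57 in the DL 63 pools. In Pi it was 2.93 to 3.06 at 91 dpc and 3.14 to 3.36 at 63 dpc. The fit shares 1 spread between the DL and Pi pools, and for these genes the spread was unequal. SERPINA1 had an SD of 3.28 in DL 91 and 1.04 in DL 63 pools, while the Pi pools lay at 2.20 to 2.61. Its standard error is therefore not that of the DL pools alone. With only the 6 DL arrays SERPINA1, TF, AFP, AHSG, ORM1, RBP4, GC and EF1ALPHA did not pass, and with all 24 arrays ALB, APOC3, TF, RBP4, GC and EF1ALPHA did not. The part of liver RNA in other German Landrace differences was not tested.

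**Figure D5:**
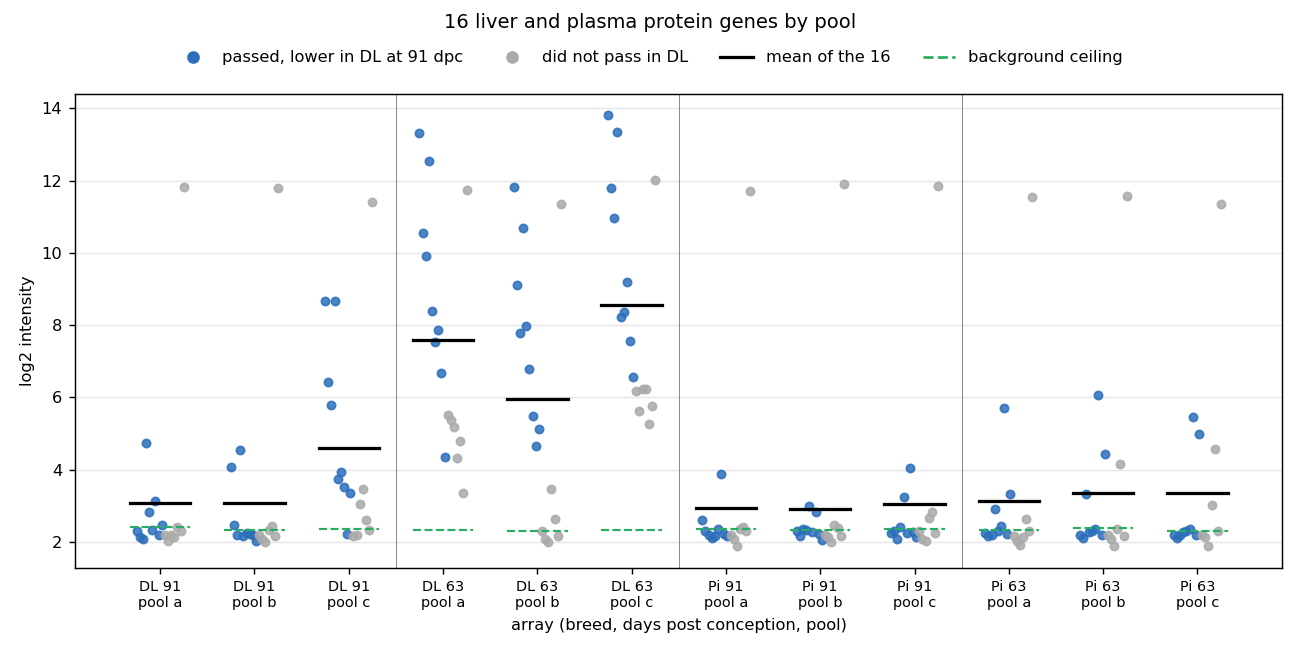
Log2 intensity (y axis) of 16 liver and plasma protein genes on each array (x axis: DL 91, DL 63, Pi 91 and Pi 63 dpc pools); blue marks genes that fell in DL, grey those that did not pass, the black bar is the mean and the dashed green line the background level of the array. The mean is 3.07 to 4.60 in the DL 91 pools, with pool c the highest of its stage, 5.96 to 8.57 in the DL 63 pools, and 2.93 to 3.36 in the Pi pools.

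The last comparison asked whether the step differed between the breeds. In the same fit 2809 probe sets passed between Pi 91 and Pi 63 dpc. Of all probe sets, 1504 passed in both breeds with the same direction and 10 with opposite directions. The difference of the steps passed for 7 probe sets (0.0292%), 3 above 0 (0.0125%) and 4 below (0.0167%), while 2393 had an unadjusted p under 0.05. It passed for 31 without DL 91 pool c, for 28 without DL 63 pool b, and for 3 or 4 without DL 91 pool a, DL 63 pool a or DL 63 pool c. A pass in 1 breed and not in the other is no difference, so each call above is one about German Landrace. Of the 7, 2 carry a gene symbol. ALB fell in DL and had 2.17, 3.0 and 3.25 in Pi 91 pools, against 2.32 in each Pi 63 pool, a difference of steps of -5.76 ± 0.54 (adjusted p = 0.0147). WDR37, a WD-repeat protein, had 8.86, 8.71 and 8.74 in DL 91 pools and 8.61, 8.48 and 8.6 in DL 63 pools. In Pi it had 8.36, 8.34 and 8.24 in the 91 dpc pools, against 9.33, 9.30 and 9.26 in the 63 dpc pools, so that the steps differed by 1.19 ± 0.09 (adjusted p = 0.0067). WDR37 did not pass with the replicate block (adjusted p = 0.129) or with dim probe sets filtered out (adjusted p = 0.051). ALB lost the call without DL 91 pool a or without DL 63 pool a or c (log2 -5.75 to -5.67, adjusted p = 0.0549 to 0.0692). It also did not pass with all 24 arrays or with the replicate block (adjusted p = 0.134 to 0.522). The largest difference of steps among the 5 probe sets with no symbol was that of a probe set at 5.35, 6.36 and 6.34 in DL 91 pools and 2.09, 2.09 and 2.11 in DL 63 pools, and at background in all 6 Pi pools (3.88 ± 0.32, adjusted p = 0.0067).

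Some named genes had unlike steps in the 2 breeds without passing this test. SLC2A4 rose in DL and differed by 0.03 in Pi (difference of steps 2.68 ± 0.47, adjusted p = 0.162). COL11A1 fell in DL and differed by 0.25 in Pi (-2.38 ± 0.45, adjusted p = 0.176). FBP2 rose by 2.57 in DL and by 4.7 in Pi (-2.13 ± 0.35, adjusted p = 0.143). AHSP, the chaperone of alpha-globin, differed by -0.53 in DL and by 2.35 in Pi (-2.89 ± 0.57, adjusted p = 0.179). Of the gene lists, complex I had a median of 0.76 in DL and 0.32 in Pi, endothelial markers 1.43 and 1.07, lipid synthesis -0.94 and -0.30, and the cell cycle -0.58 and -0.64. These medians were not tested against each other.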

How the data were processed

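Total RNA pools of longissimus dorsi muscle were hybridised to Affymetrix porcine arrays, 1 pool per array. The deposited values are log2 intensities of 24123 probe sets on 24 arrays. GCOS 1.1.1 is named in the submitters' processing notes, and no source used here gives the background and summarisation method. The sorted values of all 24 arrays were identical in the deposited table, so they were taken as quantile normalised and not normalised again. After 124 control probe sets were left out, 23999 were tested. Of these 10069 carried 1 gene symbol in the platform annotation, 198 several and 13732 none. In the lists and the panel a gene was represented by its probe set with the highest mean. Among the largest rises and falls it was represented by the brightest on average of its probe sets that passed without overlap of pools.

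Differences were tested with limma 3.58.1 in R 4.3.3 on the 12 DL and Pi arrays of 63 and 91 dpc, with 1 mean per group, which share 1 estimate of the spread (8 residual degrees of freedom). Each test was two-sided, with Benjamini-Hochberg adjustment over all probe sets and a threshold of 0.05; ± gives the standard error. The difference of steps was the DL step minus the Pi step. Background was the highest of 23 control probe sets of an array, and a fold against a group at background is a lower bound from that level. The fit was tested on simulated data. Plots used Python 3.11.15 and matplotlib 3.10.9.

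Named genes were the 15 largest rises and 15 largest falls among genes that passed without overlap of pools, the 4 largest differences of each list, the members of lists of 5 or fewer, a fixed panel and the genes with a difference of steps. Some genes that met this rule are not printed in the text. The lists and genes were chosen with earlier results of these data known. Alternatives were other sets of arrays, a replicate block, array weights, a filter on dim probe sets, a trended robust fit, a GAPDH covariate, scaling to hybridisation controls, the mean of a gene's probe sets and leaving out each pool. The number of arrays limits the precision.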

Additional observations from a re-analysis of the deposited data

Results flagged for a closer look

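The difference between the 2 breeds in the step between 63 and 91 dpc passed for 2 probe sets with a gene symbol. ALB stood 5.28 lower at 91 dpc in DL and 0.49 higher in Pi, so that the DL step minus the Pi step was -5.76 (limma, adjusted p = 0.0147). The ALB difference did not pass with all 24 arrays or with the replicate block (adjusted p = 0.134 to 0.522). The Pi pools were at or near background in both stages, and ALB was high in the 3 DL 63 pools alone of these 12, which carried other liver transcripts as well. WDR37 stood 0.21 higher at 91 dpc in DL, which did not pass on its own, and 0.98 lower in Pi, so that the DL step minus the Pi step was 1.19 (adjusted p = 0.0067), but it did not pass with the replicate block (adjusted p = 0.129) or with dim probe sets filtered out (adjusted p = 0.051). All 3 pools of each Pi stage lay apart from the other stage for WDR37.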

How the results depend on the processing

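Between DL 91 and DL 63 dpc 2696 probe sets passed. With only the 6 DL arrays 1627 passed, 875 higher and 752 lower, and 1487 of them were among the 2696 (55.2% of these). With a log2 difference of at least 1 required as well 1415 passed, 782 higher and 633 lower. With 1 pool left out 2019 to 2449 passed, 1070 to 1256 higher and 949 to 1193 lower, and 69.0% to 75.6% of the 2696 passed again. The 2 genes with a difference of steps came from 7 probe sets, a number that was 22 with all 24 arrays, 2 with dim probe sets filtered out, 13 with array weights, 3 with the GAPDH 3' minus 5' covariate and 3 to 31 with 1 pool left out, 31 without DL 91 pool c and 28 without DL 63 pool b. The pool titles do not say whether a shared letter pairs samples across stages. Over all probe sets the residuals of DL pools with the same letter correlated at -0.02 to 0.07. Such a value cannot tell whether some genes share an effect of the letter. With pool letter as a replicate block 1877 passed between the stages, 976 higher and 901 lower, and 0 for the difference of steps in limma. Of the 2696, 62.5% passed again with this block. Scaling to the hybridisation controls moved the median of all probe sets to -0.05 and gave 1101 higher and 1269 lower. No probe set that passed under both changed its direction in any alternative. The rule for naming genes gave 144 that passed, not all of which are printed here. Of these 115 passed without each single pool, 35 did not with only the 6 DL arrays and 21 did not with the replicate block. The cause of these changes was not tested. Signals near background, at or below which 21.3% to 25.7% of probe sets lay, limit what can be read from dim genes.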

Other observations

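Small heat shock proteins of muscle split, while most other chaperones that passed fell. Of 23 heat shock and chaperone genes 3 rose and 8 fell (median -0.19), and 4 to 6 fell with 1 pool left out, 4 without DL 91 pool b or DL 63 pool c. HSPB6, which binds actin regulators in muscle, had 12.65, 12.46 and 12.595 in DL 91 pools, against 10.74, 10.58 and 10.58 in DL 63 pools (1.93 ± 0.08, adjusted p = 3.35e-06). HSPB8, of chaperone-assisted autophagy at the Z-disc, rose by 1.14 ± 0.15. HSPB3, which myogenic factors induce, fell to 7.5, 6.9 and 7.5 in DL 91 pools, against 9.14, 9.16 and 9.02 in DL 63 pools (-1.81 ± 0.25, adjusted p = 0.00179). Of 26 antioxidant and metallothionein genes 3 rose and 2 fell (median -0.0023), and 1 (without DL 63 pool c) to 4 rose with 1 pool left out. GSTM3, a glutathione transferase, had 8.28, 7.69 and 7.78 in DL 91 pools, against 9.86, 10.25 and 10.12 in DL 63 pools (-2.16 ± 0.27, adjusted p = 0.000945). SOD2, the mitochondrial superoxide dismutase, rose by 0.99 ± 0.2 (adjusted p = 0.0136), but not without DL 63 pool c (log2 0.91, adjusted p = 0.0504).

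Signalling lists held few calls. Of 14 Wnt and Notch genes 3 rose and 2 fell (median -0.27). DLL4, a Notch ligand of arterial and sprouting endothelium, had 7.32, 7.09 and 7.98 in DL 91 pools, against 4.28, 4.58 and 6.21 in DL 63 pools (2.44 ± 0.49, adjusted p = 0.0113), and did not pass with only the 6 DL arrays, the 12 DL arrays or all 24 (adjusted p = 0.0846 to 0.116). DKK3, a secreted protein of the Dickkopf family, had 8.83, 8.49 and 8.63 in DL 91 pools, against 9.8, 9.82 and 9.68 in DL 63 pools (-1.12 ± 0.1, adjusted p = 0.000176). Of 22 TGF-beta, BMP and myostatin genes 4 rose and 2 fell (median 0.19), and 1 (without DL 91 pools a or b) to 3 rose with 1 pool left out. TGFB1 rose by 1.87 (adjusted p = 0.0373), but not without DL 91 pool a, b or c. SMAD3 rose by 1.74 (adjusted p = 0.0379), but not without DL 91 pool a, b or c or without DL 63 pool a, b or c. ID3, a BMP target that holds back differentiation factors, had 11.96, 12.03 and 11.52 in DL 91 pools, against 10.98, 10.95 and 11.16 in DL 63 pools (0.81 ± 0.14, adjusted p = 0.0052), and did not pass with only the 6 DL arrays (adjusted p = 0.0546). Of 13 cell cycle inhibitors and retinoblastoma family genes 2 rose and 2 fell (median 0.17). TOB1, an antiproliferative protein, rose by 0.64 ± 0.1, and CCNG1, a p53 target, fell by 0.54 (adjusted p = 0.00396). Of 11 fetal RNA-binding and chromatin factors 2 fell (median -0.23). HMGB2, a chromatin protein of dividing cells, had 11.24, 11.15 and 11.31 in DL 91 pools, against 11.99, 12.04 and 11.69 in DL 63 pools (-0.67 ± 0.13, adjusted p = 0.0109), and did not pass with all 24 arrays (adjusted p = 0.14). Of 14 hypoxia, iron and angiogenic factors 2 rose and 1, TF, fell (median 0.06), and without DL 91 pool a or DL 63 pools a or b none of this list rose in limma. EPAS1, the hypoxia factor of endothelium, had 7.21, 7.28 and 5.65 in DL 91 pools, against 4.8, 5.7 and 5.21 in DL 63 pools (adjusted p = 0.0729), and passed without DL 91 pool c (log2 2.01, adjusted p = 0.00823).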
